A study of Mus musculus with 45 samples.

Results

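The comparison described here is between 2 sets of libraries of sorted small intestinal tuft cells from mice on the regular-fat diet (RFD), a long feeding set (LTF) and a short feeding set (STF). It takes every library whose title ends in RFD, which gives 11 LTF and 11 STF libraries, 22 of the 45 in the series. Each library was made from the tuft cells of 1 mouse. All 22 mice were male C57BL/6J, arrived at 5 weeks of age, were kept 4 to a cage at 30°C, had 1 week on chow and were then fed RFD, a purified diet with 10% of energy from fat. The STF mice had 9 weeks of RFD and were about 15 weeks old at the end, and the LTF mice had 22 weeks and were about 28 weeks old. The sample labels give 9 weeks for both sets, and the longer time is the one in the methods. Feeding time, age and library set are the same split of the mice, so they cannot be told apart, and every difference below is a difference of LTF against STF. The remaining 23 libraries, 11 STF and 12 LTF, came from mice on a high-fat diet (HFD, 60% fat) and are used only to show the same contrast in other mice.

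Tuft cells are rare chemosensory cells of the intestinal epithelium. They carry taste-signalling proteins such as the cation channel TRPM5, depend on the transcription factor POU2F3, and release the cytokine IL-25 and lipid mediators when they sense luminal signals, which engages type 2 immunity. Most of the neighbouring epithelium consists of absorptive enterocytes, which digest and take up nutrients at a brush border.

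On RFD, Ost4 was higher and the noncoding gene Gm26917 was lower in LTF, both with the smallest adjusted p and with no overlap between the sets. Ezr, Gk, Nptn and B2m and H2-T23 of the MHC class I system were also higher, and mitochondrially encoded transcripts, Raly and some ribosomal protein genes were lower. Some enterocyte markers were higher as well, nearer to the threshold. A further group of lower genes, among them Apoe and the complement genes C1qa and C1qb, was carried by 5 STF libraries. The markers of tuft cells themselves did not pass the test. Levels of single genes are in CPM (TMM-normalised reads per 1000000) and sums of marker genes in RPM (reads per 1000000 reads of the library, not otherwise normalised). Of 14020 genes tested, 99 had an adjusted p under 0.1 (0.706%), with 44 higher in LTF (0.314%) and 55 lower (0.392%) by the quasi-likelihood test of edgeR after Benjamini-Hochberg adjustment. An adjusted p under 0.05 was reached by 49 genes, and 1108 had an unadjusted p under 0.05. The median log2 fold change over all genes tested was -0.09. The split between higher and lower genes moved with the scaling. It was 199 higher of 214 with limma on log2(TPM + 1), where the median of all genes moved up by 0.31, and 85 higher of 135 with an offset for GC content, and 1021 of 1187 with no filter on low counts. With the series of mouse numbers as a batch term 48 genes were called. STF mouse 84 belongs to no series and is left out of that fit and of all values within series. Single libraries moved the count to 213 without LTF mouse 1, 155 without LTF mouse 3 and 62 without LTF mouse 30.

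Total reads on genes overlapped between the sets. They ranged from 189340 to 4193097 in STF (median 1625637) and from 829184 to 3476758 in LTF (median 1348669, permutation test, two-sided, adjusted p = 0.677 over 21 measures). Within the 3 series of mouse numbers in the labels (1 to 8, multiples of 10, and others from 21 to 64), the mean total in LTF minus that in STF was 252226, 891300 and -1875538 reads. In the third series the 4 LTF totals were all below the 4 STF totals, and the mean number of genes with a read was 21190 in LTF and 13313 in STF. Other measures of the libraries differed over all mice. The 10 largest genes took 30.4 to 58.2% of the reads in STF (median 36%) and 17.1 to 36.9% in LTF (median 27.4%, adjusted p = 0.00399). Mean transcript length, from each gene's longest annotated transcript weighted by reads, was 2493 bases in the median STF library and 2663 in the median LTF library (adjusted p = 0.00399). This measure was added after seeing the data. Within the number series the 10 largest genes took a lower mean share in LTF by 9.06, 14.3 and 10.9 percentage points. The share of called genes among short transcripts and at the ends of GC content was uneven. Among the 10% of genes shortest by this transcript length (1401 genes), 11 were higher and 20 lower, beside 44 and 55 of all 14020. Among the 10% with the lowest GC content in that transcript (1399 genes), 6 were higher and 10 lower. Among the 10% with the highest GC content (1397 genes), 0 were higher and 10 lower. The part that transcript length and GC content had in these calls was not tested beyond the offset named above.

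**Figure D1:**
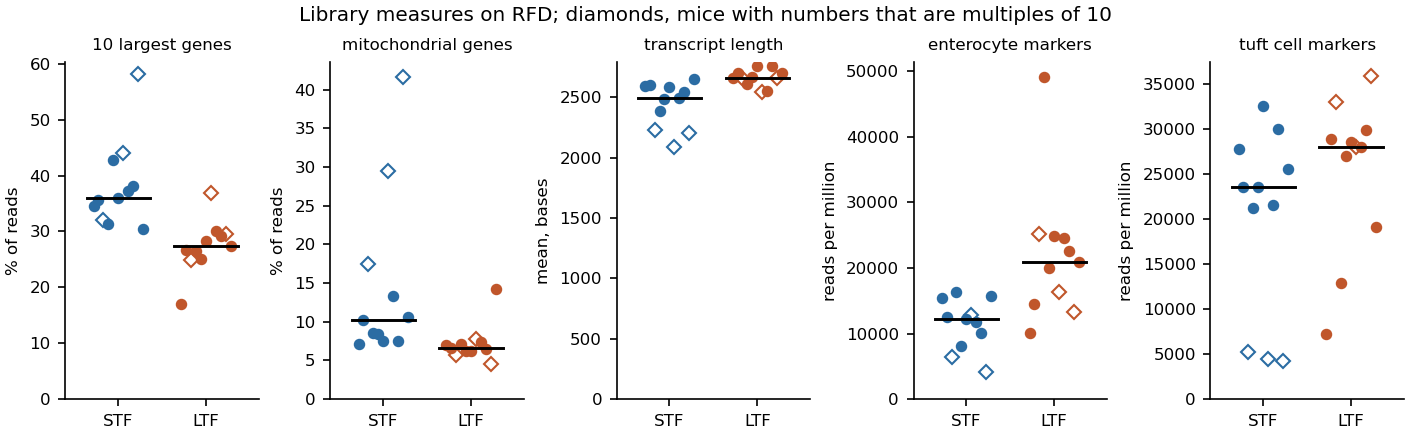
Library measures of each RFD library, with STF on the left and LTF on the right of each panel, from left to right the percentage of reads in the 10 largest genes, the percentage from mitochondrially encoded genes, the mean transcript length in bases, and the summed enterocyte and tuft cell markers in RPM. Each symbol is 1 mouse, bars are group medians, and open diamonds are mice numbered with multiples of 10; the median enterocyte sum is 12230 in STF and 20893 in LTF, while the tuft cell sums overlap throughout.

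The label of the sorted cells was checked first. Of 28 tuft cell markers, all 28 passed the filter on low counts, and 0 were called higher and 0 lower, with a median log2 fold change of 0.11 beside -0.09 over all genes. Their sum was 4233 to 32569 RPM in STF (median 23527) and 7281 to 35866 in LTF (median 28055, adjusted p = 0.473). The 3 STF mice numbered 10, 20 and 40 held 4503, 5259 and 4233 RPM of tuft markers, and LTF mouse 1 held 7281. Without the multiples of 10 in both sets, the median of the tuft list was -0.36 in place of 0.11, so no direction is given for it.

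Single tuft genes spread as widely within the sets as between them. Dclk1, the kinase used to identify tuft cells, ranged from 412.9 to 1892 CPM in STF (median 1207) and from 376.8 to 2047 in LTF (median 1497), with a log2 fold change of 0.30 (standard error 0.28, adjusted p = 0.881). Il25, the cytokine that activates type 2 lymphoid cells, was at 0 to 59.8 CPM in STF (median 15.7) and up to 50 in LTF (median 25.1), with a log2 fold change of 0.36 (standard error 0.50, adjusted p = 0.930). Tslp, another epithelial cytokine of type 2 responses, had medians of 6.28 and 12.8 CPM (log2 fold change 0.47, standard error 0.53, adjusted p = 0.902). None of these genes separated the sets. Trpm5 had a log2 fold change of -0.54, Pou2f3 of -0.22 and Siglecf, the surface marker used in the sort, of 0.29, none of them called. Gabbr1, a GABA receptor subunit, had medians of 12.3 and 12 CPM (log2 fold change 0.08, adjusted p = 0.983). Ppargc1a, a coactivator of mitochondrial biogenesis, had medians of 23.7 and 24.2 CPM (log2 fold change -0.12, adjusted p = 0.966), and Serpini1, a serine protease inhibitor, had medians of 18.9 and 27.4 CPM (log2 fold change 0.69, adjusted p = 0.820). The lists of taste transduction (11 genes tested), tuft lineage factors (13), eicosanoid synthesis (13), type 2 cytokines and receptors (9) and GABA receptors (6) had 0 members called in either direction, with medians of -0.09, -0.42, -0.08, 0.16 and -0.02.

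Ost4 encodes a very small subunit of the oligosaccharyltransferase, which attaches glycans to proteins in the endoplasmic reticulum, and lies on chromosome 5 from 30905885 to 30907788 (GRCm38, minus strand). It ranged from 3.81 to 41.3 CPM in STF (median 23.4) and from 59.7 to 126.2 CPM in LTF (median 92.2), so every LTF mouse was above every STF mouse. The level was 4.36 times higher in LTF (log2 fold change 2.12, standard error 0.25, adjusted p = 3.26e-05). Within the series of mouse numbers its mean log2 CPM was higher in LTF by 1.89, 2.56 and 2.22. In the HFD mice of the same 2 sets the log2 fold change was 2.11.

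Nptn, which encodes the cell adhesion protein neuroplastin, was at 33.4 to 76.3 CPM in STF (median 54.5) and at 86.2 to 141.8 CPM in LTF (median 101.1). Its ranges did not overlap either, with a log2 fold change of 0.93 (standard error 0.19, adjusted p = 0.0218). Only 8 of the 14020 genes (0.0571%) had ranges that did not overlap. The higher ones were Ost4, Nptn, Polr2k, a small RNA polymerase subunit, and Churc1, of which Churc1 was not called (adjusted p = 0.194). Polr2k had a log2 fold change of 1.21 (adjusted p = 0.052). The lower ones were Gm26917 and the mitochondrial pseudogenes Gm10222, Gm29216 and Gm28661, described further on. Polr2k and Churc1 were named after their values were seen.

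The next of the higher genes by p have diverse roles. Ezr encodes ezrin, which anchors the actin core of microvilli to the membrane. It ranged from 110.1 to 205.3 CPM in STF (median 152.2) and from 180.5 to 599.4 CPM in LTF (median 323.5), above the highest STF mouse in 9 of 11. Its log2 fold change was 1.08 (standard error 0.21, adjusted p = 0.0138). Gk, glycerol kinase, was at 6.50 to 34.5 CPM in STF (median 17.9) and at 15.7 to 448.5 CPM in LTF (median 51.0), with a log2 fold change of 2.26 (standard error 0.45, adjusted p = 0.0144). The ranges overlapped, and 8 LTF mice lay above all STF mice. The highest value belonged to LTF mouse 3, and without it the log2 fold change of Gk was 1.59. Clca4b, of a family of chloride conductance regulators, had medians of 131.2 and 404.4 CPM and a log2 fold change of 1.63 (standard error 0.34, adjusted p = 0.0218). Asah2, the neutral ceramidase of the brush border, had medians of 19.2 and 76.0 CPM and a log2 fold change of 1.51 (standard error 0.33, adjusted p = 0.0351). B4galnt2, a glycosyltransferase of the intestinal epithelium, had medians of 75.5 and 161.1 CPM and a log2 fold change of 1.01 (standard error 0.22, adjusted p = 0.0324). In each of these 3 genes, 7 or 8 LTF mice exceeded every STF mouse.

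Of 15 enterocyte markers, 3 were called higher and 0 lower, and 14 of 15 had a positive fold change, with a list median of 0.81 beside -0.09 over all genes. Slc5a1, the sodium glucose transporter, was at 188.7 to 966.4 CPM in STF (median 489.0) and at 321.4 to 2687 CPM in LTF (median 1311), above the highest STF mouse in 8 of 11 (log2 fold change 1.27, adjusted p = 0.0617). Rbp2, the retinol-binding protein of enterocytes, had medians of 210.3 and 559.2 CPM (log2 fold change 1.13, adjusted p = 0.0865). Lct, Apoc3 and Anpep had log2 fold changes of 1.48, 1.16 and 1.05 without passing the test, and Alpi was the member below 0, at -0.19. Other digestive genes outside the list and named after their values were seen were also higher. Slc6a19, an amino acid transporter, had a log2 fold change of 1.90 (adjusted p = 0.0426), and the peptidases Mme and Enpep had 1.52 and 1.44.

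The summed enterocyte markers were 4146 to 16305 RPM in STF (median 12230) and 10015 to 49134 in LTF (median 20893, permutation test, adjusted p = 0.00588). Within the number series the mean sum was higher in LTF by 11695, 10454 and 9762 RPM. Both groups carried these transcripts in every library, and in a bulk library more cells of another type and more RNA per cell cannot be told apart. LTF mouse 3 had the largest sum, 49134, and the fewest genes with a read, 8580. Without it the number of genes called was 155. The part of enterocyte RNA in the higher genes was not tested. Without the 5 STF libraries that held macrophage transcripts, which leaves 6 STF mice, none of the 3 markers passed and the list median was 1.10. Without LTF mouse 40 or 1, 7 and 6 markers passed, and without LTF mouse 21, 23, 24 or 30 only 1 did.

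**Figure D2:**
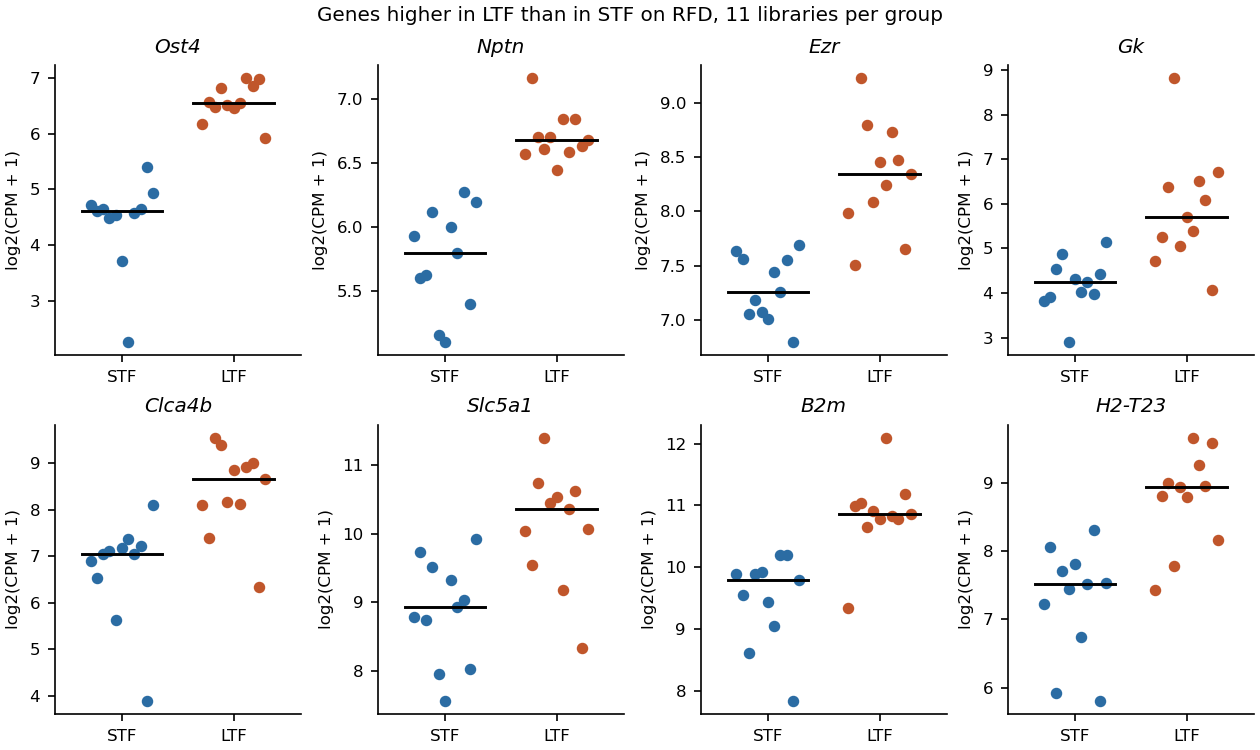
Levels of 8 genes that were higher in LTF, as log2(CPM + 1) in each RFD library; each symbol is 1 mouse and bars are group medians. The STF and LTF symbols of Ost4 and Nptn do not overlap, and those of Ezr, Gk, Clca4b, Slc5a1, B2m and H2-T23 do.

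MHC class I molecules present peptides from inside the cell to T cells, and B2m encodes the invariant light chain that all of them need. B2m was at 227.0 to 1175 CPM in STF (median 882.3) and at 647.3 to 4374 CPM in LTF (median 1854), and 10 of 11 LTF mice lay above the highest STF mouse. The log2 fold change was 1.35 (standard error 0.27, adjusted p = 0.0185), and the mean log2 CPM was higher in LTF by 0.43, 2.94 and 1.09 in the 3 number series. H2-T23, which encodes a non-classical class I heavy chain, was at 55.0 to 315.3 CPM in STF (median 183.1) and at 172.2 to 806.7 CPM in LTF (median 487.6), with a log2 fold change of 1.43 (standard error 0.29, adjusted p = 0.0191). These were the 2 members called higher of 16 genes of class I presentation and peptide loading, none was called lower, and the list median was 0.43. The classical heavy chains H2-K1 and H2-D1 had 0.47 each and the peptide transporter genes Tap1 and Tap2 had 0.34 and 0.90, none of them past the test. Reads of H2 genes can be divided among near-identical copies. None of 31 interferon stimulated genes, 19 interferon signalling genes, 5 immunoproteasome genes and 8 MHC class II genes was called, with medians of 0.08, -0.03, 0.41 and 0.05.

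B2m was the class I gene with the smaller p, and the bases just before its RefSeq start are shown, on GRCm38.p6 at chr2:122147437-122147685, plus strand. Capitals mark, in order, a match to the interferon-stimulated response element, searched on both strands as GAAA and GAAA with 2 bases of any kind between them, and a CCAAT box read on the minus strand, searched as CCAAT on both strands.

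B2m promoter: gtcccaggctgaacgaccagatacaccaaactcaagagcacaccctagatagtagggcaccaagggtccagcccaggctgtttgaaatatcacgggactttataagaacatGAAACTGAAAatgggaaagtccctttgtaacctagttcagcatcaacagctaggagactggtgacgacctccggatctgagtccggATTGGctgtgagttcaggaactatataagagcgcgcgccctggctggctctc

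The first match lies 139 to 130 bases before the start, and such a match was found in 2.96% of 32851 RefSeq promoters of mouse. The CCAAT match lies 53 to 49 bases before the start and is common, in 33.8% of promoters. These are matches of letters and no binding was measured here.

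**Figure D3:**
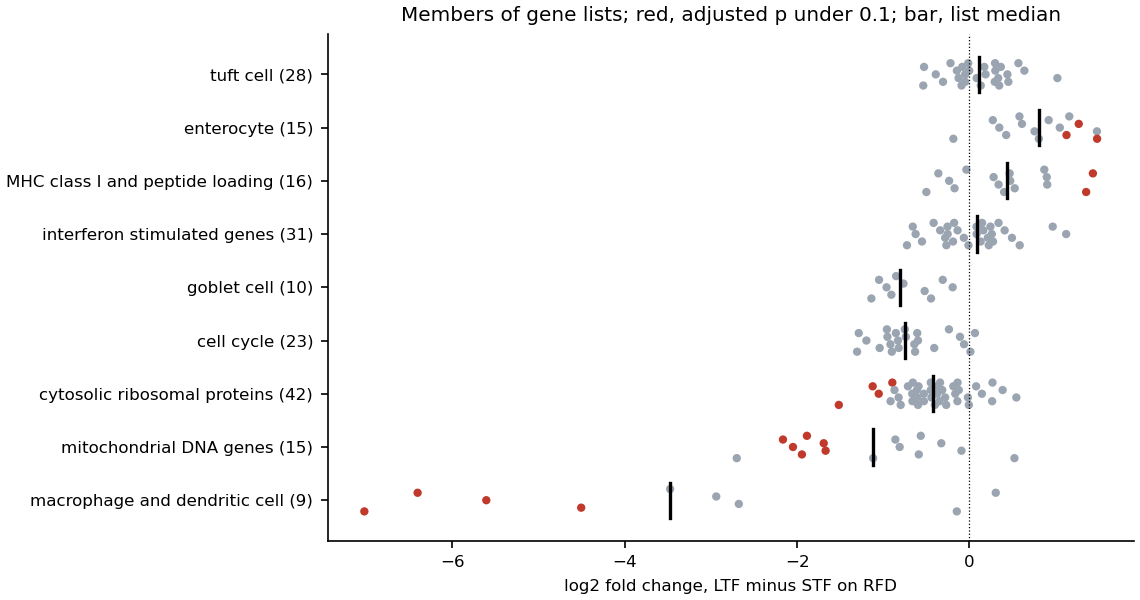
Log2 fold change (LTF minus STF on RFD) of the tested members of 9 gene lists, 1 row per list with the number of members in brackets; red points passed an adjusted p under 0.1 and black bars are list medians. The enterocyte median is 0.81 and the mitochondrial DNA median -1.12, while the tuft cell, interferon stimulated, goblet cell and cell cycle rows hold no red point; the fitted values of the macrophage row rest on few reads in LTF.

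Others of the higher genes encode small parts of larger complexes. Atp5e, the epsilon subunit of ATP synthase, was at 34.4 to 169.7 CPM in STF (median 127.5) and at 123.7 to 397.9 CPM in LTF (median 291.1), with a log2 fold change of 1.18 (standard error 0.24, adjusted p = 0.0194). Tomm7, of the outer membrane import complex, had medians of 28.3 and 64.5 CPM and a log2 fold change of 1.11 (standard error 0.23, adjusted p = 0.0218). Chmp5, of the membrane-remodelling ESCRT machinery, had medians of 40.4 and 80.7 CPM and a log2 fold change of 0.98 (standard error 0.22, adjusted p = 0.0364). In each of the 3, at least 9 LTF mice lay above all STF mice. A list of 36 nuclear respiratory chain genes, which does not hold these genes, had 0 members called, with a median of 0.01. Idi1, an isomerase of sterol synthesis, had medians of 46.9 and 102.4 CPM (log2 fold change 0.88, adjusted p = 0.0695) and was the 1 gene called of 20 for fatty acid and cholesterol synthesis. Of 29 fatty acid oxidation genes 0 were called, with a median of -0.04.

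The transcripts encoded by mitochondrial DNA were lower in LTF. Of 15 tested, 6 were called lower and 0 higher, 14 had a negative fold change, and the list median was -1.12. Cytochrome b, mt-Cytb, ranged from 13505 to 98802 CPM in STF (median 18572) and from 5861 to 13906 CPM in LTF (median 6887). In 10 of 11 LTF mice it was below the lowest STF mouse, with a log2 fold change of -2.16 (standard error 0.34, adjusted p = 0.00199). The ribosomal RNA mt-Rnr1 was at 1377 to 8043 CPM in STF (median 1886) and at 457.9 to 1587 CPM in LTF (median 769.7), with a log2 fold change of -1.69 (standard error 0.30, adjusted p = 0.0074). The cytochrome oxidase subunit mt-Co1 had medians of 20570 and 9311 CPM and a log2 fold change of -1.67 (adjusted p = 0.0123). The ATP synthase subunits mt-Atp8 and mt-Atp6, whose genes overlap, had log2 fold changes of -1.89 (adjusted p = 0.0123) and -2.05 (adjusted p = 0.0138), and mt-Nd1 of respiratory complex I had -1.94.

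The summed mitochondrial share of reads was 7.10 to 41.7% in STF (median 10.2%) and 4.49 to 14.2% in LTF (median 6.57%, permutation test, adjusted p = 0.0482). The highest shares were in STF mice 10, 20 and 40, with 29.5, 17.5 and 41.7%, which are also the STF mice with few tuft marker reads. By number series the mean share was lower in LTF by 0.772, 23.6 and 2.05 percentage points. Without the multiples of 10 in both sets, the list median was -0.40 and 3 of the 15 genes were called, and the log2 fold change of mt-Cytb was -1.18 (adjusted p = 0.0109). That of mt-Atp6 was -0.77 (adjusted p = 0.158) and that of mt-Atp8 -0.92 (adjusted p = 0.202). Without the 1 library under 500000 reads, STF mouse 40, the share no longer passed 0.05 (adjusted p = 0.0754), nor without STF mouse 84 (adjusted p = 0.0602). A cluster of pseudogenes with near-identical copies in mitochondrial DNA, on chromosome 1, was also lower. Among them Gm10222 was at 174.4 to 498.5 CPM in STF and 80.9 to 163.8 CPM in LTF, and Gm29216 had a log2 fold change of -1.49. Gm28661 ranged from 606.0 to 8256 CPM in STF and from 0 to 476.9 CPM in LTF, and Gm28437 had a log2 fold change of -1.53. Reads of these copies and of the mitochondrial genes are divided during counting, so they are no separate finding.

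Raly, an RNA-binding protein gene on chromosome 2 from 154791096 to 154867261 (GRCm38, plus strand), was at 17.6 to 116.8 CPM in STF (median 59.7) and at 0.692 to 23.7 CPM in LTF (median 7.44). In 10 of 11 LTF mice it was below the lowest STF mouse, and the level was 6.56 times lower (log2 fold change -2.71, standard error 0.45, adjusted p = 0.00307). In HFD mice its log2 fold change was -2.34. Gm26917, a long noncoding gene on chromosome 17 from 39843013 to 39846341, ranged from 845.3 to 3585 CPM in STF (median 2042) and from 286.2 to 656.9 CPM in LTF (median 455.5), with no overlap and a log2 fold change of -2.11 (standard error 0.26, adjusted p = 3.26e-05). It lies beside AY036118, at 39847113 to 39848035, which took 4.21 to 16.6% of the reads in STF and 3.60 to 10.1% in LTF. AY036118 itself was not called, with a log2 fold change of -0.67 (standard error 0.25, adjusted p = 0.399), and neither was Lars2, at -0.60 (standard error 0.34, adjusted p = 0.707).

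Of 42 cytosolic ribosomal protein genes, 4 were called lower and 0 higher, 36 had a negative fold change, and the list median was -0.42. Rps2 was at 94.4 to 884.5 CPM in STF (median 348.0) and at 84.6 to 248.7 CPM in LTF (median 104.2), with a log2 fold change of -1.52 (standard error 0.31, adjusted p = 0.0178). Rpl14 had medians of 214.8 and 92.1 CPM (log2 fold change -1.12, adjusted p = 0.0314), and Rps19 of 346.6 and 202.1 CPM (log2 fold change -0.89, adjusted p = 0.0695). The levels of these genes overlapped between the sets. Ribosomal protein genes have many processed copies that can share reads. On the TPM scale the list median was -0.03 and 0 members were called, and without the multiples of 10 it was -0.34 with 0 called. Leaving out LTF mouse 1 gave 10 called members and leaving out LTF mouse 30 gave 2.

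The remaining large group of lower genes was present in few STF mice. Of the 55 lower genes, 18 had over 90% of their summed STF CPM in mice 3, 4, 10, 24 and 84, against 246 of all genes tested (1.75%). The 5 mice were chosen after their macrophage reads were seen, and the 18 genes include macrophage genes. This share is therefore a description and no test. Apoe, an apolipoprotein abundant in macrophages, was at 300.6 to 1146 CPM in these 5 mice, at 0 to 9.05 CPM in the other 6 STF mice and at 0 to 7.93 CPM in LTF (adjusted p = 0.00447). C1qb, a chain of complement C1q made by tissue macrophages, was at 20.9 to 72.2 CPM in the 5 mice and at 0 CPM in the other 6, and no LTF library held more than 1 read (adjusted p = 0.0074). C1qa was at 5.71 to 97.5 CPM, at 0 to 3.90 CPM and at 0 to 1.38 CPM in the 3 groups of mice (adjusted p = 0.00861). In these genes all 5 mice lay above the other 6. Clec4n, a lectin receptor for fungal sugars on myeloid cells, was at 14.4 to 74.6 CPM in the 5 mice, at up to 1.89 CPM in the other 6 and at up to 0.791 CPM in LTF. Fcgr3, an Fc receptor, was at 9.51 to 53.4 CPM in the 5 mice and at up to 0.702 CPM in LTF, and of the other 6 STF mice only mouse 40 held reads, at 13.8 CPM, above mouse 10 of the 5. Fitted folds of genes with so few LTF reads depend on the prior count of the model and are not given beside these values. With the filter on low counts taken over the 22 RFD libraries, C1qa, C1qb, Clec4n, Fcgr3 and Hbb-bs, given below, were not tested. They passed the filter used here only because reads of HFD libraries counted too, so their adjusted p are descriptions and no support.

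Of 9 macrophage and dendritic cell markers, 4 were called lower, C1qa, C1qb, C1qc and Csf1r, and 2 without STF mouse 24. Their sum was 3.77 to 541.9 RPM in STF (median 26.4) and 5.20 to 111.4 in LTF (median 11.3, permutation test, adjusted p = 0.1). The 5 STF mice held 238.1 to 541.9, and of the others none exceeded 26.4. Haemoglobin transcripts were high in the same mice. Hbb-bs, a beta globin of red blood cells, was at 19.0 to 90.3 CPM in the 5 mice, at 0 to 2.52 CPM in the other 6, and at 0 to 1.38 CPM in LTF (adjusted p = 0.0123). Summed haemoglobin, a measure added after these genes were seen, reached 183.9 RPM in STF and 2.38 RPM in LTF and is given as a description. B and plasma cell markers moved with the same mice, with 107.8 to 781.2 RPM in the 5 and 0 to 43.1 RPM in the other 6, and LTF mice held 0.475 to 313.6 RPM. With the 5 mice left out, an alternative chosen after seeing the data, 16 genes were called in all, 2 of them higher and 15 of them among the 99. Because these mice are the ones that hold the macrophage transcripts, the loss of Apoe and of the macrophage markers from the calls follows from leaving them out and is no test of them. Against the 6 remaining STF mice, Ost4 and Raly had log2 fold changes of 2.11 (adjusted p = 0.00164) and -2.88 (adjusted p = 0.0422), and mt-Cytb had -2.08 (adjusted p = 0.0118).

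**Figure D4:**
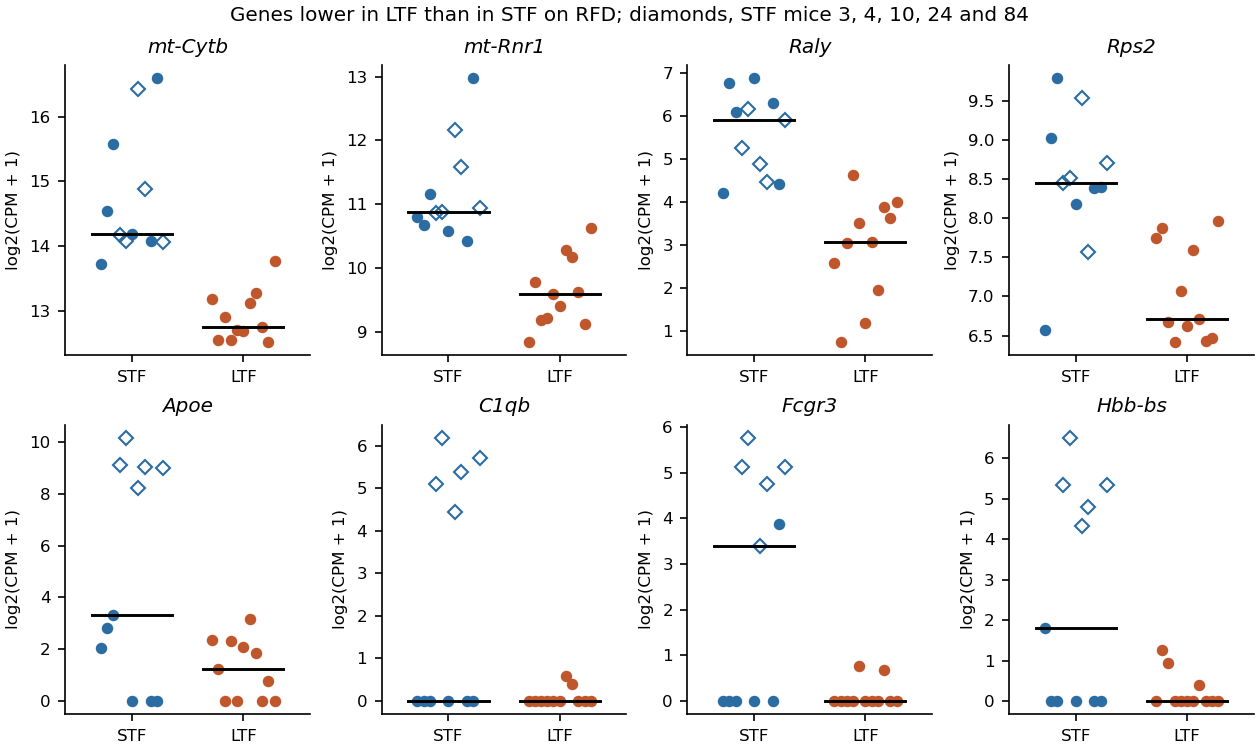
Levels of 8 genes that were lower in LTF, as log2(CPM + 1) in each RFD library; each symbol is 1 mouse, bars are group medians, and open diamonds are STF mice 3, 4, 10, 24 and 84. For Apoe, C1qb and Hbb-bs every diamond lies above the other STF symbols, for Fcgr3 mouse 40 (13.8 CPM) lies above 1 diamond (9.51 CPM), and for mt-Cytb, mt-Rnr1, Raly and Rps2 most STF mice lie above the LTF median.

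Markers of other cells and the remaining lists did not pass. Of 10 goblet cell markers 0 were called (median -0.81), of 10 Paneth cell markers 0 (median -1.05), of 12 stem and dividing cell markers 0 (median -0.81) and of 13 enteroendocrine markers 0 (median -0.48). The 5 M cell, 8 intraepithelial T cell, 4 B and plasma cell and 1 eosinophil markers tested had 0 called, with medians of -0.45, -0.06, -0.81 and -0.91. Paneth cell transcripts were very uneven, from 57.9 to 112552 RPM in STF and from 97.0 to 53281 in LTF, with the highest sum in STF mouse 20. Of 23 cell cycle genes 0 were called and 21 had a negative fold change, with a median of -0.75, which was 0.29 without the multiples of 10. With the same mice left out, the medians of the Paneth, stem and dividing cell and M cell lists were 1.85, 0.02 and 0.51. The lists of unfolded protein response (19 genes), heat shock (13), antioxidant defence (22), circadian clock (19), immediate early response (21) and mucosal defence (12) had 0 called, with medians of -0.19, -0.15, 0.05, -0.22, -0.01 and 0.04. Without the multiples of 10 those of the unfolded protein response, heat shock and circadian clock lists were 0.01, 0.53 and 0.46. The medians of the interferon stimulated, MHC class II, type 2 cytokine and fatty acid oxidation lists given above changed sign too, to -0.30, -0.48, -0.14 and 0.01. No direction is therefore given for any list without a called member.

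The same contrast in the HFD mice shares no library with the RFD contrast but the same 2 library sets. There 1320 of 14020 genes were called (9.42%), 694 higher (4.95%) and 626 lower (4.47%). Of the 99 RFD genes, 61 were also called on HFD, 37 higher in both and 24 lower in both, and 0 were called in opposite directions. This is 61.6% of the RFD calls and 4.62% of the HFD calls. Of the 44 higher genes, 43 had a positive fold change on HFD, and of the 55 lower genes, 41 had a negative one. The median log2 fold change on HFD over all genes tested was 0.06. B2m had a log2 fold change of 0.92 on HFD, H2-T23 of 1.84, Ezr of 1.14 and Gk of 1.27, each called there too. The enterocyte list had 10 of 15 members called higher on HFD (median 1.14), the class I list 5 of 16 (median 0.47), and the ribosomal list 26 of 42 called lower (median -0.59). The mitochondrial DNA list had 4 of 15 called lower on HFD, with a median of -0.18 beside -1.12 on RFD. The macrophage list differed in its values, with 0 called and a median of 0.63 on HFD. There macrophage sums above 300 RPM were found in mice of both sets, 613.4, 360.6 and 978.1 in STF mice 5, 7 and 60 and 2677 in LTF mouse 31. Apoe had a log2 fold change of 0.38 on HFD and C1qb of 0.69, neither called.

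**Figure D5:**
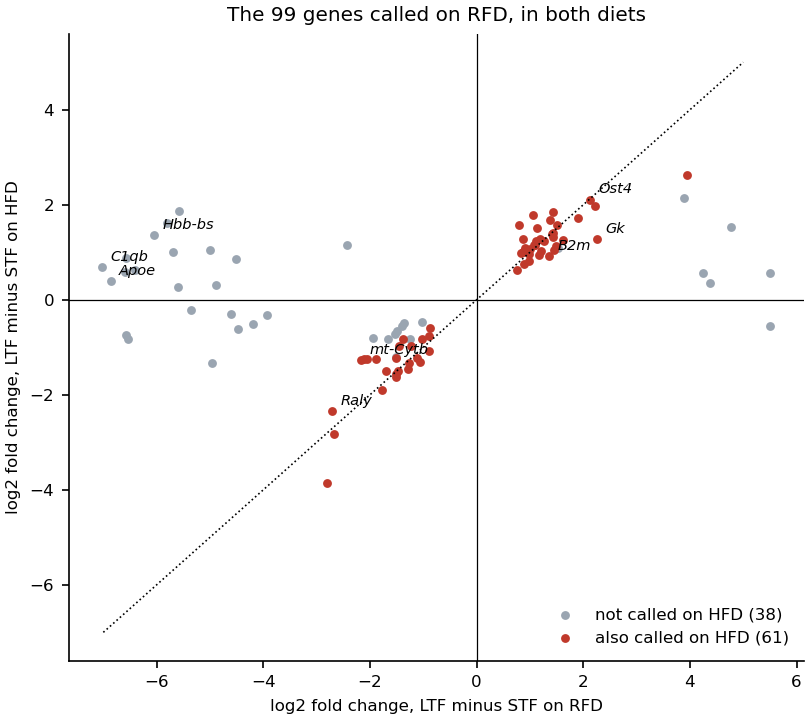
Log2 fold change of LTF against STF on RFD (horizontal) and on HFD (vertical) for the 99 genes called on RFD; red points were also called on HFD (61), grey points were not (38), and the dotted line marks equal values. Ost4 and Raly lie near the dotted line, and Apoe, C1qb and Hbb-bs lie far left at HFD values near or above 0.

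Whether the RFD difference itself departed from the HFD difference was tested in all 45 libraries with an interaction term. It passed for 1 gene of 14020 (0.00713%), and 459 had an unadjusted p under 0.05. The gene was Nts, the enteroendocrine peptide neurotensin. It was at 0 to 20.1 CPM in RFD STF mice (median 0.722) and at 0 to 261.0 CPM in RFD LTF mice (median 25.1), with a log2 fold change of 3.59 on RFD that was not called (standard error 0.96, adjusted p = 0.104). On HFD its level reached 33.9 CPM in STF and 1.01 CPM in LTF, and the median was 0 in both.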

How the data were processed

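The paper gives the sort gate of the tuft cells as EpCAM+ CD45+ Siglec-F+, and elsewhere states that cells with CD45 were excluded. Which of these holds is not settled here. RNA of the sorted cells was amplified by Smart-seq2 and sequenced in pairs after Nextera XT preparation. The authors trimmed reads with Cutadapt 1.15, aligned them with STAR 2.6.0 and deposited RSEM expected counts and TPM per gene. Versions come from the submitters' processing notes, which name the GRCm38 build. RSEM divides reads among matching genes, so that 8.79% of counts above 0 held fractions. The authors' later weighing by cell type proportions was not repeated. The tables held 24 columns without a labelled sample, which were not used. The deposited FPKM tables were not used.

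Expected counts were rounded, and of 47729 genes a gene was tested when 6 or more of the 45 libraries held over 5 reads. Genes sharing a symbol with one of more reads (27) were removed. Symbols and positions are from GENCODE M21. The sets were compared with edgeR 4.0.16 (R 4.3.3, TMM, glmQLFit, glmQLFTest) in the 22 RFD libraries with no covariate, with Benjamini-Hochberg adjustment over all 14020 genes and a threshold of 0.1. CPM are TMM-normalised reads per 1000000, and RPM are reads per 1000000 of the library. Library measures, in groups of 11, were compared by two-sided permutation tests with 100000 resamples and a threshold of 0.05, adjusted over 21 measures. According to the paper, mice were ended on 3 days, a cage of each group per day. Whether the number series mark these days is not stated. Both tests take the mice as independent, so shared cages or days can make their p-values too small. DESeq2 1.42.0, limma 3.58.1 on log2(TPM + 1) and the other alternatives are given in the closing section. The fit was tested on simulated data before use. It recovered 31.8% of genes changed by 1 log2 unit and 82.1% of those changed by 2, and 20 of its 161 calls were false. The changed genes were drawn only from those above a limit on the mean count, so recovery of low-count genes was not measured. Counts were simulated independently, with no number series or macrophage reads in some libraries. A gene that was not called is therefore not shown to be unchanged.

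Named genes were the 12 higher and 12 lower called genes with the smallest p that are no predicted models or pseudogenes, up to 4 called members of each function list, the genes the study centres on, AY036118 and Lars2. Called members of cell marker lists and the pseudogenes with Gm names were added after their values were seen, as were mt-Nd1, Slc6a19, Mme and Enpep. Some called members are counted but not reported by name here. The comparison, the members and the gene lists were chosen with earlier results of these data known. Depth limits low genes, since 1 read in the shallowest library is worth more CPM than in the deepest.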

Additional observations from a re-analysis of the deposited data

Results flagged for a closer look

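The difference between LTF and STF was not the same on both diets for Nts, the neurotensin gene of enteroendocrine cells, by an interaction term in edgeR fitted to all 45 libraries. The log2 fold change on RFD minus that on HFD was 8.44 (SE 1.65, adjusted p = 0.0695), from 3.59 on RFD (adjusted p = 0.104) and -4.70 on HFD (adjusted p = 0.0245). On HFD, reads of Nts were found at 33.9, 18.5 and 2.11 CPM in STF mice 6, 8 and 7 and at 0.471 and 1.01 CPM in LTF mice 31 and 33, and the other 18 HFD libraries were at 0. DESeq2's Wald test called 0 genes in this interaction, with 572 at an unadjusted p under 0.05. With so many libraries at 0, the size of the fitted values depends on the prior count of the model. The enteroendocrine marker list that holds Nts had 9 of 13 members called lower on HFD (median -4.50) and 0 called on RFD (median -0.48). These counts are no test of a difference between the diets. HFD STF mouse 8 held 6560 RPM of these markers, against 61.1 to 1005 RPM in the other HFD STF mice. The interaction of Pyy and Cck, other members, did not pass the adjustment (adjusted p = 0.145 and 0.286).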

How the results depend on the processing

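The count of 99 genes was 362 with DESeq2's Wald test, 1187 with no filter, 218 with all 45 libraries in the fit, 48 with the number series as a batch, 214 with limma on log2(TPM + 1), 0 with the Wilcoxon rank-sum test (1569 at an unadjusted p under 0.05) and 16 without the 5 STF libraries with macrophage reads. It was 136 with DESeq2's size factors, 80 with the filter over the 22 libraries, 119 without the low total, 137 with a tuft marker covariate, 92 without the dominant transcripts, 135 with the GC offset and 92 without the multiples of 10. The batch fit leaves out STF mouse 84, which belongs to no number series. In the Wilcoxon test even Ost4 and Nptn, whose ranges did not overlap, had an adjusted p of 0.115. With 11 mice per set no gene can rank further apart, so its 0, here and in the lists below, cannot tell whether a single gene differs. Leaving out 1 library gave 62 (LTF mouse 30) to 213 (LTF mouse 1) genes, and 155 without LTF mouse 3. Of the 99 genes, 46 were called in all 22 such fits. In a fit with the replicate block, which pairs mice of the same number, 2 genes were called, Ost4 and Gm26917, with 505 at an unadjusted p under 0.05. The 9 shared numbers did not deviate together (r from -0.293 to 0.203). The highest r of each with a mouse of another number was 0.089 to 0.467. A low r cannot show that mice of the same number share nothing else. The interaction gave 68 genes with no filter and 0 with DESeq2. On HFD the split was 582 higher of 1394 with DESeq2's size factors.

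Enterocyte markers called higher (3) were 7 with DESeq2, 9 with no filter, 6 each with all 45 libraries, TPM and the GC offset, 5 without the multiples of 10, and 0 with the block, the Wilcoxon test or without the 5 libraries. They ranged from 1 (without LTF mouse 21, 23, 24 or 30) to 7 (without LTF mouse 40) on leaving out 1 library. Class I genes (2) were 4 with no filter and 0 with the block, the Wilcoxon test or without the 5 libraries, and 2 to 3 on leaving out 1. Macrophage markers called lower (4) were 2 with all 45 libraries or without the multiples of 10, 0 with the block, TPM, the Wilcoxon test or without the 5 libraries, and 2 (without STF mouse 24) to 4 on leaving out 1. Mitochondrial DNA genes (6) were 0 with the block and the Wilcoxon test, 3 without the multiples of 10, and 6 whichever library was left out. Ribosomal protein genes (4) were 13 with DESeq2, 2 with the GC offset, 0 with the block, TPM, the Wilcoxon test, without the 5 libraries or without the multiples of 10, and 2 (without LTF mouse 30) to 10 (without LTF mouse 1) on leaving out 1. Tuft markers called (0) were 1 with DESeq2, with no filter and without LTF mouse 1. C1qb had a fitted log2 fold change of 1.29 (adjusted p = 0.895) without the 5 libraries, where all 6 STF mice are at 0, so that the value is set by the prior count and is no test. The mitochondrial share in LTF minus STF was -4.84 points without the low total (adjusted p = 0.0754) and -7.95 without STF mouse 84 (adjusted p = 0.0602), and that of haemoglobin was -45.1 and -32.7 RPM (adjusted p = 0.0508 and 0.0563). The haemoglobin sum was formed from genes already called and is no separate evidence. Leaving out libraries lowers the number of mice, and other causes of these shifts were not tested. The exclusions of the 5 libraries and the multiples of 10, the GC offset, the leaving out of each library, and the measures of haemoglobin and mean transcript length were chosen after seeing the data.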

Other observations

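Ghrl, the gene of the hormone ghrelin, reached 14.4 CPM in RFD STF mice and 54.0 CPM in RFD LTF mice, with medians of 0 and 0.992 (log2 fold change 1.61, adjusted p = 0.796). Cck, the gene of cholecystokinin, had medians of 4.02 and 33.4 CPM on RFD (log2 fold change 1.48, adjusted p = 0.763), with highest values of 98.9 and 195.0 CPM. Among the higher genes, Actb, the cytoplasmic actin gene, was at 688.0 to 1568 CPM in STF (median 1056) and at 1270 to 2869 CPM in LTF (median 1905), and 9 of 11 LTF mice lay above all STF mice (log2 fold change 0.79, adjusted p = 0.0749). Plac8 had medians of 534.7 and 1008 CPM (log2 fold change 0.87, adjusted p = 0.0818). These 4 genes were picked after their values were seen.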
